A study of Homo sapiens with 6 samples.

Results

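The respiratory chain and ATP synthase subunits encoded in the nucleus were followed in HaCaT, a human keratinocyte line that grows without limit in culture, after mild heat. Members were the rows of the deposited count table whose gene symbol matched the patterns of complex I (NDUFA, NDUFB, NDUFC, NDUFS and NDUFV with a number), II (SDHA to SDHD), III (UQCR), IV (COX4 to COX8) and V (ATP5), with a mean of at least 50 counts over the 6 libraries. In all, 79 of the 15379 genes in the table were members, 37 for complex I, 4 for II, 9 for III, 11 for IV and 18 for V. The rule itself uses no measured value but this minimum, while the gene family was picked with earlier results of these data known. The control cells were treated at 37C and the heated cells at 41C, both for 1 h per day on 3 days, with 3 libraries each. The series asks how heat acts on pigment formation by way of the calcium channel TRPV3 and Hedgehog signalling. All libraries come from this single line, with no other cell type in the culture named. Nothing in the labels tells whether replicates came from different cultures; the p-values below therefore rest on a spread between libraries that could be technical. When RNA was taken after the last exposure was not given in the sources used here.

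Complexes I and II pass electrons from NADH and succinate to coenzyme Q, complex III passes them on to cytochrome c, and complex IV passes them to oxygen. Complexes I, III and IV pump protons across the inner mitochondrial membrane, and the ATP synthase (complex V) uses the return flow of protons to make ATP. All but complex II also hold subunits encoded in mitochondrial DNA, so the nuclear genes are one side of an assembly fed by both genomes. Among the members are a few genes whose symbols say less than their proteins. NDUFA4 was named for complex I, but its protein is bound to complex IV; it was counted with complex I as its symbol has it. ATP5IF1 encodes an inhibitor of the ATP synthase and COX7A2L a factor that joins complexes III and IV. UQCRHL is a near-identical copy of UQCRH, so the counts of UQCRH and UQCRHL are uncertain.

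The members were abundant transcripts. They took 1.11 to 1.22% of the counts of each library, and their median level was 87.0 FPKM (counts scaled to gene length and library size, made by the authors), against 8.05 FPKM over the 12056 genes tested. ATP5F1B, the catalytic beta subunit of the ATP synthase, had the highest level per length, 686.1 to 792.6 FPKM over the 6 libraries, clear of all other members. COX8A, COX4I1 and COX6A1, subunits of complex IV, followed at means of 426.1, 421.1 and 399.3 FPKM, and their ranges over the libraries overlapped. The lowest members per length were the complex I subunits NDUFC2 at 4.002, NDUFV3 at 4.63 and NDUFA5 at 7.08 FPKM. The median member of complex IV had 209.5 FPKM, that of complex V 112.2, of II 88.3, of I 72.7 and of III 62.5. FPKM depends on the length assigned to a gene, and the deposited lengths of 6 members (7.60%; 11.5% of tested genes) were over 2 times the length of their principal transcript in GENCODE release 29. NDUFA5, named above among the lowest, is 1 of these 6, with 7048 deposited bases against 1901, and its low FPKM depends on that length. The members just inside and just outside the minimum were far apart: NDUFC2 had a mean of 174.3 counts and COX6B2, a testis-type isoform, 5.67. COX7A1 and COX8C, isoforms known from muscle and testis, had means of 0.167 and 0.500 counts, ATP5MGL had 3.17, and COX4I2 had no row in the table used.

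**Figure D1:**
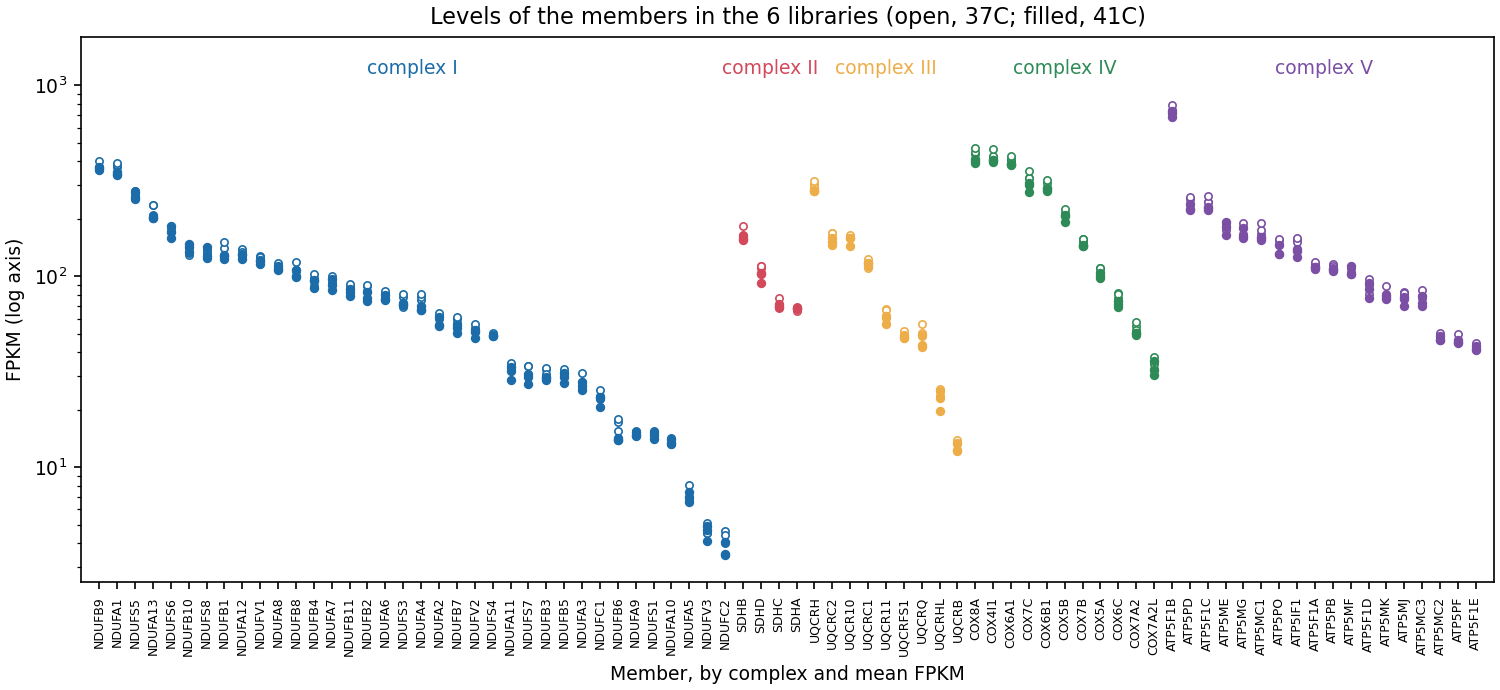
FPKM of the members, all but 1 of the 79, in the 6 libraries on a log axis, ordered by complex and by mean level; open points are 37C and filled points 41C libraries. Members differ from 4.002 (NDUFC2) to 732.9 FPKM (ATP5F1B), while the 6 libraries of 1 member lie close together.

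Promoters of these genes are known for binding sites of the nuclear respiratory factors NRF1 and GABP (an ETS family factor) and of YY1, which tie the expression of the subunits to that of other mitochondrial genes. In RefSeq's table of promoters (GRCh38.p14; 250 bases before to 50 after each gene's start), 65 of the 79 members had an entry. The letters GCATGCGC, the core of the NRF1 motif, stood on either strand in 11 of the 65 (16.9%), against 5.02% of the other tested genes and 3.10% of all 27305 promoters. AAGATGGC, the core of the YY1 motif, stood in 12 (18.5%), against 5.44% and 3.03%, and CCGGAAG, an ETS motif, in 20 (30.8%), against 19.2% and 10.5%. The motifs can overlap, since the ETS letters end in the AAG that opens the YY1 letters, and the NRF1 core can match both strands at 1 place. The heat shock element, 3 alternately inverted GAA blocks with 2 bases between them, was in 0 of the 65 windows, in 0.318% of the other tested genes and in 0.494% of all promoters. The 3 promoters below are among those that hold both an NRF1 and an ETS match, and belong to members described in what follows. Each is given over its 250 bases before the start, 5′ to 3′ on the gene's strand, with matches to the NRF1 and ETS motifs in capitals.
SDHB, chr1:17054033-17054282, minus strand: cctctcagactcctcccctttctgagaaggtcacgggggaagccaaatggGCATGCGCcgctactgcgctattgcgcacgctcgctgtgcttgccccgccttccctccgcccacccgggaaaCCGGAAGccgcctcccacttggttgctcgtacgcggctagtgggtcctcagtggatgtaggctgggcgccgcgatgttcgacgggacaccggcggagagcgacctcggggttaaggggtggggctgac
SDHD, chr11:112086623-112086872, plus strand: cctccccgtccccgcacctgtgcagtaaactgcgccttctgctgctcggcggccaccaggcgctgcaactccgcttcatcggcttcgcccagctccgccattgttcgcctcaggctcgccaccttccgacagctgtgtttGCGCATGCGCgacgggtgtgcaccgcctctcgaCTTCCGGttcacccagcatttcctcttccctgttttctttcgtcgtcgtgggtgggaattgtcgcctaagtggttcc
COX6A1, chr12:120437863-120438112, plus strand: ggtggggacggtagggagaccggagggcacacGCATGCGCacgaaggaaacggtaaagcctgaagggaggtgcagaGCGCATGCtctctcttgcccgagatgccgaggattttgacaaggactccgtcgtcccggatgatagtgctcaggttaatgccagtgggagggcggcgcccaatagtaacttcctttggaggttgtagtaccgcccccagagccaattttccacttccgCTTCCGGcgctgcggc
In SDHB the NRF1 match starts 200 bases and the ETS match 128 bases before the gene's start. In SDHD 2 overlapping NRF1 matches, on opposite strands, start 110 and 108 bases before it, and in COX6A1 the 2 NRF1 matches start 218 and 174 bases before it. The members with an NRF1 match had a median log2 change of -0.07 at 41C against 37C and those without one -0.08 (0.035 and -0.008 with the length correction described further on). For YY1 these medians were -0.05 and -0.08 (0.009 and -0.008 corrected), and for ETS -0.09 and -0.06 (0.014 and -0.008 corrected). The differences were not tested. A match is a run of letters and not a measured site.

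After heat the members lay slightly lower as a body, and none of them passed the test. Of the 79 members, 74 (93.7%) had a negative log2 change at 41C, against 49.1% of all tested genes (5 were positive, against 50.9%), and the median was -0.07, a level 4.87% lower, against 0.00 over all tested genes. With edgeR's quasi-likelihood test at an adjusted p of 0.05, 0 members were higher and 0 lower, where 0.821% of all tested genes were called higher and 0.265% lower, 1.09% in either direction. Of all 131 calls 99 were higher, and 57 of 110 with upper-quartile scaling factors, with which 77 of the 79 members were negative. DESeq2 and limma-voom also called 0 members. At an unadjusted p under 0.05, 0 members were higher and 20 (25.3%) lower, against 7.58% and 6.12% of all tested genes. The 3 libraries at 41C all lay below the 3 at 37C in 20 members (25.3%; 8.84% of all tested genes) and above them in 0 (11.2% of all tested genes). RNA of whole cultures cannot tell less of a transcript in every cell from fewer cells that hold it.

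The members are short genes, and in these libraries the change ran with gene length. Their median length was 1173 bases, from ATP5ME at 303 to NDUFS1 at 11774, against 4038 bases over all tested genes. Across all 12056 tested genes, Spearman's rho between length and log2 change was 0.25, and it was 0.25 across the 79 members, a description over genes that share the same 6 libraries. The 34 members of up to 1000 bases had a median log2 change of -0.08, as did the 410 other tested genes of that length, at -0.08. The 28 members above that and up to 2500 bases had -0.09 and the 2612 other genes -0.03, and the 17 longer members had -0.03 where 8955 other genes had 0.02. Short members thus had nearly the median of other short genes, though 33 of the 34 (97.1%) were negative, against 79.5% of the others. Longer members had a lower median than other genes of their class. These differences were not tested.

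**Figure D2:**
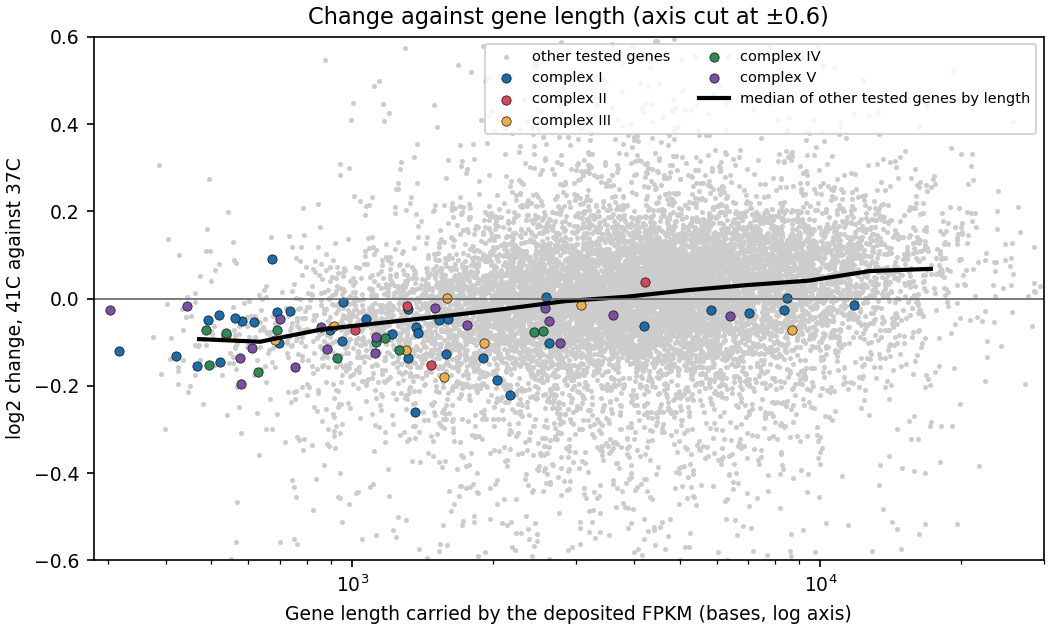
log2 change at 41C against 37C on gene length (log axis) for the members, coloured by complex, and for the other tested genes in grey; the black line is the median of the other genes in bins of length, and genes beyond 0.6 in either direction are outside the frame. The line runs from below 0 at short lengths to above 0 at long ones, and members longer than 1000 bases lie mostly below it.

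A correction that removes from each library its own trend on gene length took away most of this shift. With it the members' median log2 change was -0.01 (all tested genes 0.01), 42 of the 79 were lower (53.2%; all tested genes 45.4%) and 37 higher (all tested genes 54.6%), and edgeR's test called 0 higher and 0 lower (all tested genes 0.647% and 0.299%, 0.946% in all). At an unadjusted p under 0.05, 2 members were higher and 2 lower (all tested genes 7.97% and 4.86%). The groups then did not overlap in 7 members above (8.86%; all tested genes 10.8%) and 5 below (6.33%; all tested genes 7.22%), shares close to or under the background. The correction takes out any effect of heat that itself runs with length, so the part of the shift due to either cannot be told apart. Within the members the corrected changes ran against length: the short ones had a median of 0.04, those of the middle class -0.02 and the longer ones -0.05, where the other genes of these classes had 0.03, 0.02 and 0.01. Spearman's rho between length and corrected change was -0.61 across the members and -0.01 across all tested genes. With the length of the principal transcript in place of the deposited one, the members' median was likewise -0.01 and 0 were called. By that length, short, middle and longer members had medians of 0.024, -0.020 and -0.075, and other genes 0.021, 0.015 and 0.009. All 15 members over 2500 bases were then negative, against 46.6% of such other genes. Across the members this rho was -0.60.

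**Figure D3:**
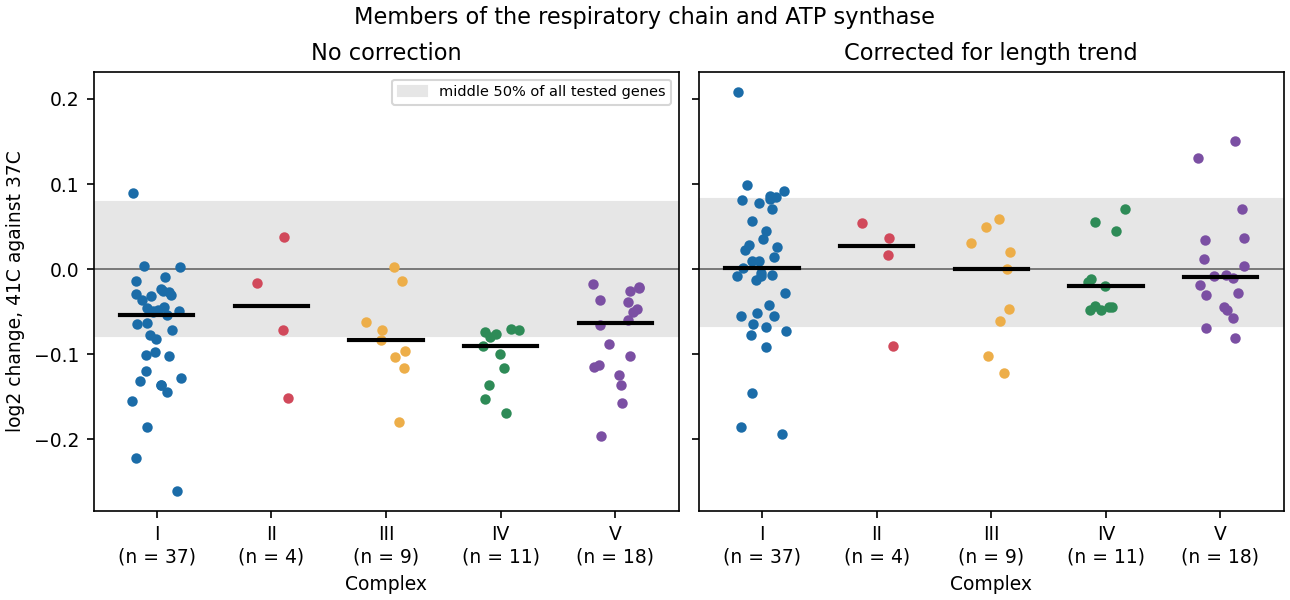
log2 change at 41C against 37C for each member by complex, without correction (left) and corrected for the trend on length (right); black bars are medians and the grey band holds the middle 50% of all tested genes. The medians of -0.04 to -0.09 on the left move to between -0.02 and 0.03 on the right.

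The members stood highest in one control library. Relative to each gene's mean over the 6 libraries, the median member stood at -0.01, 0.03 and 0.10 in 37C replicates 1, 2 and 3 and at -0.05, -0.05 and -0.02 in 41C replicates 1, 2 and 3, on the log2 CPM scale (counts scaled to library size). In 37C replicate 3, 57 of the 79 members had their highest value, while 41C replicates 1 and 2 held the lowest value of 24 and 27. The other tested genes of up to 1000 bases stood at 0.11 in 37C replicate 3 too, and those over 2500 bases at -0.02. Without 37C replicate 3 the members' median log2 change was -0.05 without and 0.02 with the length correction, and without 37C replicate 1 it was -0.11 and -0.01. By complex, the medians without correction ran from 0.01 (II) to -0.064 (III) without 37C replicate 3, and from -0.09 (II) to -0.125 (IV) without 37C replicate 1. With the length correction the median member stood at 0.03 in 37C replicate 3 and between -0.02 and 0.01 in the others. After it, 24 of the 79 members were highest in 37C replicate 3, and 41C replicates 1 and 2 each held the lowest value of 14. How many of all tested genes were highest or lowest in each library is not given here.

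**Figure D4:**
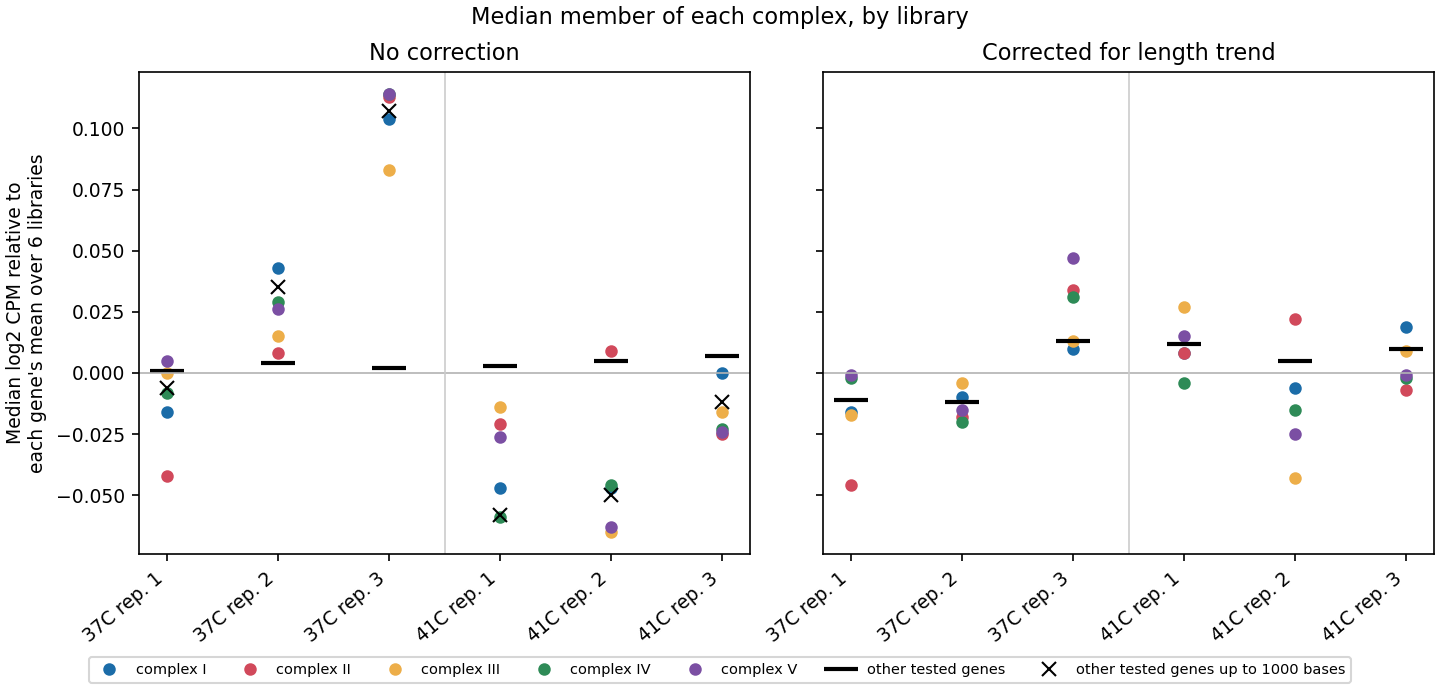
Median log2 CPM of each complex's members relative to each gene's mean over the 6 libraries, without (left) and with (right) the length correction; bars are the other tested genes and crosses, on the left only, the other tested genes of up to 1000 bases. On the left all 5 complexes are highest in 37C replicate 3, at 0.08 to 0.11, near the cross at 0.11; on the right they stand at 0.01 to 0.05 there.

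Of the 37 complex I members, 34 were negative with a median log2 change of -0.05, and 0.00 after the length correction, with 18 negative. The 7 core subunits, which carry the flavin, the iron-sulfur clusters and the quinone site, had a median of -0.05, with the lowest at -0.14 in NDUFS7 (named after its values were seen), and the 29 accessory subunits likewise -0.05, from -0.26 to 0.09. NDUFS1, the largest core subunit, had 180.1, 172.4 and 173.9 CPM at 37C and 172.9, 180.2 and 168.3 at 41C, and NDUFV1, the subunit that binds NADH, went from 189.9 ± 7.30 to 183.6 ± 5.46 CPM (SD, n = 3). Both genes had overlapping groups, with log2 changes of -0.01 ± 0.05 and -0.05 ± 0.05 (SE). NDUFB6, an accessory subunit of the membrane arm, had the largest decrease among all members, with 20.8, 23.4 and 24.4 CPM at 37C and 18.9, 19.3 and 19.0 at 41C. All 3 heated libraries lay below the controls, and the log2 change was -0.26 ± 0.09, short of the threshold (adjusted p = 0.169 by edgeR). After the length correction it was -0.19 ± 0.08 (adjusted p = 0.326 by edgeR), still without overlap.

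NDUFA4 came nearest to the threshold without the length correction. This gene (chr7:10931951-10940256 on GRCh38) had 150.1, 158.3 and 164.3 CPM at 37C and 135.1, 142.8 and 137.7 at 41C. The groups did not overlap, before or after the length correction, and the level at 41C was 12.1% lower (log2 change -0.19 ± 0.05, 95% interval -0.29 to -0.08, edgeR adjusted p = 0.0882). With the length correction the log2 change was -0.15 ± 0.05 (edgeR adjusted p = 0.178). It passed without 37C replicate 1 (-0.23, edgeR adjusted p = 0.0324) and without 37C replicate 3 (-0.15, edgeR adjusted p = 0.0415). It did not with each of the other 4 libraries left out (edgeR adjusted p = 0.231 to 0.370). The fits without 37C replicate 1 and without 37C replicate 3 called 223 of 12148 and 805 of 12154 tested genes. With all libraries 131 of 12056 were called. NDUFA1, a small accessory subunit of 421 bases, had -0.13 ± 0.05 (edgeR adjusted p = 0.210) and 0.02 ± 0.05 after the length correction. NDUFB9, the most abundant member of complex I per length, had -0.03 ± 0.05, and 0.09 ± 0.05 after the correction, with the heated libraries then above the controls (edgeR adjusted p = 0.440). NDUFC2, the member with the fewest counts, had -0.22 ± 0.12, with a 95% interval from -0.47 to 0.03.

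NDUFB10 went the other way and was chosen for mention after its values were seen. This accessory subunit (chr16:1959508-1961975 on GRCh38) had 85.9, 89.2 and 95.02 CPM at 37C and 90.3, 99.8 and 97.5 at 41C, groups that overlapped (log2 change 0.09 ± 0.06, edgeR adjusted p = 0.528). After the length correction its values were 85.5, 85.6 and 88.2 against 95.4, 104.5 and 99.5 length-corrected CPM. All 3 heated libraries then lay above the controls, with a log2 change of 0.21 ± 0.05 (edgeR adjusted p = 0.0734). It passed with the correction when 37C replicate 3 was left out, where it was the only member called. That fit called 1029 of all 12154 tested genes, 733 of them higher.

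**Figure D5:**
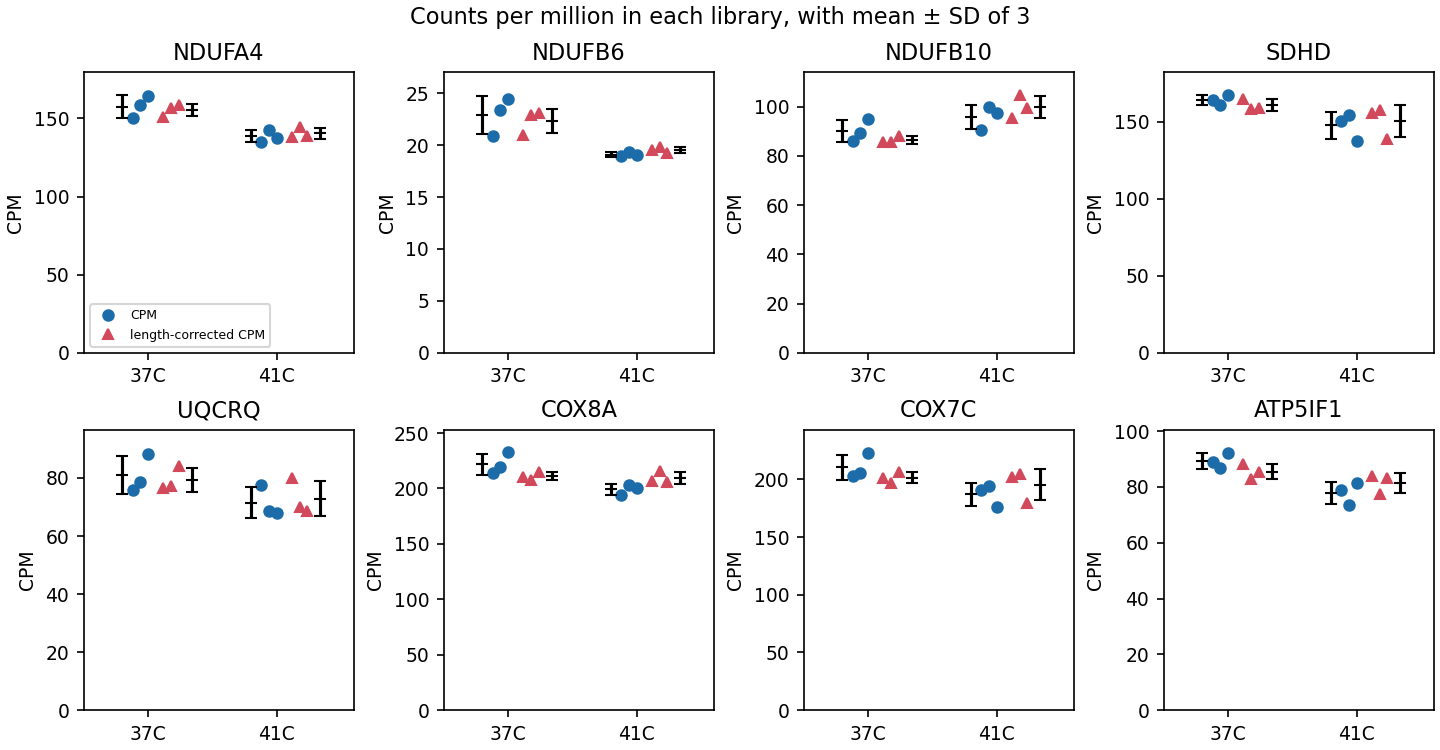
CPM of 8 members in each library (blue circles) and length-corrected CPM (red triangles), with mean ± SD of the 3 libraries in black; axes start at 0. NDUFA4, NDUFB6 and SDHD stay lower at 41C in both scales, while COX8A, COX7C and ATP5IF1 overlap once corrected and NDUFB10 separates upwards.

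In complex II, which also serves the tricarboxylic acid cycle, the anchor subunit SDHD lay apart between the groups and the other subunits overlapped. SDHD had 163.8, 161.0 and 167.1 CPM at 37C and 150.7, 154.4 and 137.5 at 41C, without overlap (log2 change -0.15 ± 0.05, edgeR adjusted p = 0.184; -0.09 ± 0.05 with adjusted p = 0.501 after the length correction). SDHA, which holds the flavin, had 280.8 ± 6.14 CPM at 37C and 288.3 ± 2.92 at 41C (SD, n = 3), a log2 change of 0.04 ± 0.04. SDHB, the iron-sulfur subunit, had -0.07 ± 0.06 and SDHC, the other anchor, -0.02 ± 0.06 (edgeR adjusted p = 0.609 and 0.942). The 4 had a median of -0.04, 0.03 after the length correction (-0.04 where principal-transcript lengths were used) and 0.01 without 37C replicate 3. The principal transcript of SDHC has 13566 bases, against a deposited length of 1308. Its corrected log2 change was -0.09 with the principal length and 0.05 with the deposited one. The difference between SDHD and the other subunits was not tested.

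Of the 9 complex III members, 8 were negative, with a median log2 change of -0.08. It was 0.00 after the length correction, or -0.05 where principal-transcript lengths were used. Among these members the lengths of UQCRHL differ most in that direction, with 2180 bases for the principal transcript against a deposited 538. UQCRQ, a small ubiquinone-binding subunit, had 76.0, 78.6 and 88.4 CPM at 37C and 77.7, 68.7 and 68.1 at 41C. The highest heated library lay among the controls (log2 change -0.18 ± 0.07, edgeR adjusted p = 0.260), and exons of GDF9 on the opposite strand overlap this gene over 306 bases. UQCRC2, a core protein, went from 314.4 ± 9.56 to 292.6 ± 11.1 CPM (SD, n = 3; -0.10 ± 0.05, edgeR adjusted p = 0.314). The hinge protein gene UQCRH had -0.10 ± 0.05 (edgeR adjusted p = 0.364) and its copy UQCRHL -0.08 ± 0.11, values that may mix reads of both. UQCRC1, the other core protein, and UQCRFS1, the Rieske iron-sulfur subunit, had 0.00 ± 0.05 and -0.01 ± 0.05. The 95% intervals of the last pair ran from -0.10 to 0.11 and from -0.12 to 0.09.

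All 11 complex IV members were negative, with a median log2 change of -0.09, and 8 of 11 with a median of -0.02 after the length correction. COX8A, a small subunit of 494 bases (chr11:63974607-63976543 on GRCh38), had 213.5, 219.1 and 232.5 CPM at 37C and 194.0, 203.5 and 200.5 at 41C. The heated libraries lay below all controls (log2 change -0.15 ± 0.05, edgeR adjusted p = 0.131). After the length correction the groups overlapped and the log2 change was -0.01 ± 0.05 (edgeR adjusted p = 0.952). COX7C had 202.7, 205.4 and 222.8 CPM against 190.5, 194.6 and 175.9, likewise apart before and not after the correction (-0.17 ± 0.05 and -0.04 ± 0.05, edgeR adjusted p = 0.139 and 0.779). COX6C, COX7A2 and COX4I1, the last a subunit of the early assembly steps, had -0.14 ± 0.06, -0.12 ± 0.06 and -0.10 ± 0.05, and -0.04, -0.05 and -0.02 corrected. COX6A1, whose promoter is printed above, turned with the correction: 212.6, 218.7 and 229.9 CPM at 37C lay above 205.7, 209.3 and 210.6 at 41C, while the corrected values at 41C lay above those at 37C (-0.08 ± 0.05 and 0.06 ± 0.05, edgeR adjusted p = 0.453 and 0.656). COX6B1 had -0.07 ± 0.05 and 0.07 ± 0.05, and COX7A2L -0.07 ± 0.07 and -0.05 ± 0.07.

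In the ATP synthase all 18 members were negative, with a median log2 change of -0.06, and 11 with a median of -0.01 after the length correction. ATP5IF1 (chr1:28236109-28246906 on GRCh38), whose product blocks the enzyme when it would run backwards and consume ATP, had 88.9, 86.8 and 92.2 CPM at 37C and 79.0, 73.4 and 81.2 at 41C. The groups did not overlap and the level was 12.8% lower (log2 change -0.20 ± 0.06, edgeR adjusted p = 0.106). After the length correction they overlapped, at -0.07 ± 0.06 (edgeR adjusted p = 0.657). Without 37C replicate 3 and without correction it passed (-0.17, edgeR adjusted p = 0.0466), in a fit that called 805 of all 12154 tested genes. In the catalytic F1 head, ATP5F1B had 1247, 1308 and 1394 CPM at 37C and 1291, 1273 and 1224 at 41C, with overlap and a log2 change of -0.06 ± 0.05. ATP5F1C, the central stalk subunit, went from 278.4 ± 12.8 to 255.3 ± 5.56 CPM (SD, n = 3) without overlap (-0.12 ± 0.05, edgeR adjusted p = 0.223; -0.04 ± 0.04 corrected). The peripheral stalk subunits ATP5PO and ATP5PD had -0.16 ± 0.06 and -0.11 ± 0.05, and -0.05 and 0.01 corrected.

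The c ring, the rotor through which protons pass, is encoded by 3 genes for the same mature protein. ATP5MC1 had 94.3, 99.7 and 109.5 CPM at 37C and 92.0, 89.9 and 94.0 at 41C. The groups were just apart (log2 change -0.14 ± 0.06, edgeR adjusted p = 0.310). ATP5MC2 and ATP5MC3 overlapped, at -0.02 ± 0.05 and -0.10 ± 0.05 (edgeR adjusted p = 0.907 and 0.399). ATP5MC1 is the shortest of these at 576 bases, against 2578 and 2776, and after the length correction the 3 had -0.01, 0.00 and -0.08. ATP5ME, the shortest member, had -0.03 ± 0.07, and 0.15 ± 0.07 after the correction (edgeR adjusted p = 0.341); exons of MYL5 on the opposite strand overlap its annotated exons over 579 bases.

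Summed over all members, the level was 11390, 11700 and 12240 CPM at 37C and 11190, 11140 and 11290 at 41C. The 3 heated libraries lay below the controls, at 0.952 of their mean, and 0.971 without 37C replicate 3. By complex the ratio of the summed CPM was 0.959 for I, 0.974 for II, 0.950 for III, 0.932 for IV and 0.953 for V, and the groups overlapped for I and II. With length-corrected CPM these ratios were 1.01, 1.00, 0.988, 0.993 and 0.985, and the groups overlapped for each complex. Without TMM factors the CPM ratios were 0.946, 0.962, 0.938, 0.920 and 0.941. In FPKM, which carries no TMM factors and weights short genes more, they were 0.941, 0.944, 0.934, 0.916 and 0.931, with every heated library below the controls in each complex. These sums have no test, since the members were chosen with results of these data known.

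The median SE of a member's log2 change was 0.06, against 0.08 over all tested genes, at totals of 19659112 to 20856144 counts per library. Exons of a gene on the opposite strand that also has a row in the table overlap 21 of the 79 members, and the strand setting of the counting was not given in the sources used here. Keratinocyte markers were present, with all 10 at 1 CPM or more and a sum of 7239 to 7753 CPM at 37C and 8108 to 8504 at 41C, without overlap. Of the melanocyte markers 4 of 7 had rows, 0 of them at 0 counts in all libraries, with a summed 4.93 to 5.09 CPM at 37C and 5.015 to 6.18 at 41C; TYRP1 and DCT, which make melanin precursors, were under 1 CPM. Fibroblast and leukocyte markers summed to 13.5 to 17.9 CPM in every library, with 3 of the 5 fibroblast markers that had rows (DCN, LUM and PDGFRA) and 3 of the 4 leukocyte markers (PTPRC, CD3E and LYZ) under 1 CPM. Their part in the members' values was not tested.

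Other genes of the pathway gave no calls either. Of 188 tested genes in 11 lists, edgeR called 0 higher and 0 lower (0.821% and 0.265% of all tested genes). DESeq2 and limma-voom called 0 as well. The length correction also gave 0 and 0 by edgeR (0.647% and 0.299% of all tested genes). At an unadjusted p under 0.05, 9 were higher and 13 lower (7.58% and 6.12% of all tested genes). With the length correction 14 were higher and 7 lower at that level (7.97% and 4.86% of all tested genes). Cytochrome c1 (CYC1), the complex III subunit outside the symbol pattern, had 311.4 ± 15.2 CPM at 37C and 310.1 ± 12.6 at 41C (SD, n = 3; log2 change -0.01 ± 0.05). CYCS, the cytochrome c gene, had -0.08 ± 0.05 (edgeR adjusted p = 0.517). The 18 tested assembly factors of complex I had a median log2 change of -0.06, with 13 negative (49.1% of all tested genes were negative). The 24 of complex IV had -0.02, with 14 negative. After the length correction these lists had -0.03 and 0.03, with 11 and 9 negative (45.4% of all tested genes). The 10 of complexes II and III had -0.01 and the 4 of the ATP synthase -0.08, or 0.036 and -0.072 with the length correction.

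Upstream of the subunits, TFAM, which packages mitochondrial DNA and takes part in its transcription, had 74.5 ± 8.47 and 74.1 ± 5.50 CPM (SD, n = 3). Its log2 change was -0.01 ± 0.08. LRPPRC, a stabiliser of mitochondrial messenger RNA, had 0.05 ± 0.12. The 26 tested genes of mitochondrial DNA expression had a median of -0.01, and edgeR called 0 (1.09% of all tested genes). At an unadjusted p under 0.05, 1 was higher and 1 lower (7.58% and 6.12% of all tested genes). NRF1, whose motif was searched above, had 22.9 ± 1.47 and 23.5 ± 1.92 CPM (SD, n = 3; 0.04 ± 0.09, edgeR adjusted p = 0.890). PPARGC1A, the coactivator that drives mitochondrial biogenesis in muscle and brown fat, was counted 10, 1 and 9 times in the libraries at 37C and 19, 10 and 5 times in those at 41C, too few to be tested. The 16 tested regulators had a median of 0.08, with 4 negative (49.1% of all tested genes) and 3 higher at an unadjusted p under 0.05 (7.58% of all tested genes). The 23 genes of the tricarboxylic acid cycle had a median of -0.03. Carriers, uncoupling proteins and enzymes of the coenzyme Q pool (27) had -0.04, supercomplex and cristae genes (17) -0.02, and glycolysis (20) 0.01. In that order the medians with the length correction were 0.003, -0.019, 0.042 and 0.018. Without it, 2, 0, 0 and 2 were higher and 0, 4, 3 and 3 lower at an unadjusted p under 0.05 (7.58% and 6.12% of all tested genes). Without 37C replicate 3, 5 genes of these lists were higher and 1 lower by edgeR, where 805 of all 12154 genes tested were called, 483 of them higher. With the length correction 10 were higher and 1 lower, where 1029 were called, 733 of them higher.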

How the data were processed

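Gene counts of 3 HaCaT libraries at 37C and 3 at 41C were used. RNA was prepared with mirVana reagents and sequenced from TruSeq Stranded mRNA libraries, per the labels' protocols. The submitters' processing notes name Trimmomatic 0.36, HISAT2 and GRCh38.p13; which read counter was used was not given in the sources used here. The deposited counts are whole reads per gene symbol, not normalized. The deposited FPKM values are, within 0.01%, the same counts scaled to 1 fixed length per gene and to the library's total, and gave the gene lengths.

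For the main test edgeR 4.0.16 (R 4.3.3) was run with filterByExpr, TMM factors and the robust quasi-likelihood fit on all 12056 tested genes, two-sided, with Benjamini-Hochberg adjustment at 0.05. CPM are scaled by TMM factors. For the length correction, each library's log2 deviation from the gene mean was fitted by a spline with 4 degrees of freedom on log2 length and entered as an offset. Intervals of 95% come from the SE and the fit's degrees of freedom. For 3 libraries against 3, the smallest exact permutation p of a single gene is 0.1, two-sided.

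Named members were those past the threshold, the 3 with the smallest p and the 2 with the highest FPKM in each complex, a list fixed by name, the least counted, the longest and the shortest; of the pathway lists, genes past the threshold and 6 fixed by name. NDUFS7, NDUFB10, NDUFV3, NDUFA5 and PKM were named after their values were seen. The members and lists were chosen with earlier results of these data known. Alternatives were DESeq2 1.42.0, limma 3.58.1 (voom, and log2(FPKM + 1) or log2(FPKM + 0.1)), other scaling factors and filters, a GC correction, a replicate block and each library left out. The principal-transcript length, a trend from non-members, NDUFA4 placed in complex IV and UQCRHL left out were added after the data were seen. Genes matched GENCODE release 29 (GRCh38) by symbol for 79 of 79 members. The values of 1 member are not reported here, though it is counted in the summaries.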

Additional observations from a re-analysis of the deposited data

How the results depend on the processing

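The count of 0 members called held with DESeq2, limma-voom, both FPKM scales, both other scaling factors in edgeR, the filter at a CPM of 1, member minimums of 10 or 100 counts, the length correction and its added forms. Lower members called were 2 with the GC correction (COX8A and ATP5IF1) and 1 without a filter (NDUFA4), and 0 to 2 with libraries left out; higher ones were 0 to 1 with libraries left out and the length correction.

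Same-numbered libraries correlated at 0.08, -0.02 and 0.08 in their deviations from the group means, and differently numbered ones at -0.14 to 0.07. Deviations from a mean of 3 libraries are tied to each other. These few values therefore cannot tell whether same-numbered libraries were paired. With the replicate block 3 members were lower and 0 higher (NDUFA4, COX8A and ATP5IF1), and 1 higher and 0 lower with the block and the length correction (NDUFB10). All tested genes called were 438 with the block, 341 with block and length correction, 440 with the GC correction and 284 without a filter, against 131, and 5 to 805 with libraries left out, or 6 to 1029 with the length correction (5 without 41C replicate 2, 805 without 37C replicate 3). With upper-quartile factors 57 of 110 calls were higher, against 99 of 131. Of the pathway lists, 1 gene (PKM) was higher with the GC correction, without a filter, with the block, and with the block and length correction; with libraries left out 0 to 5 were higher and 0 to 1 lower, and 0 to 10 and 0 to 1 with the length correction.

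The median log2 changes of all members and of complexes I to V moved with the length correction, to -0.007, 0.001, 0.027, 0.000, -0.020 and -0.009. They were -0.006, 0.003, 0.027, 0.001, -0.020 and -0.009 with the block added. The trend taken from non-members gave medians of -0.001, 0.001, 0.028, 0.000, -0.019 and -0.009. With principal-transcript lengths they were -0.006, 0.009, -0.041, -0.051, -0.022 and -0.016. With libraries left out the medians ran from -0.112 to -0.046 for all members, -0.106 to -0.033 for I, -0.091 to 0.010 for II, -0.110 to -0.064 for III, -0.125 to -0.061 for IV and -0.108 to -0.047 for V, and the sign for II turned without 37C replicate 3. With the length correction and 37C replicates 1, 2 and 3 and 41C replicates 1, 2 and 3 left out in turn, they were -0.013, -0.010, 0.019, -0.008, 0.009 and -0.005 for all members. In that order they were -0.011, 0.016, 0.022, 0.002, 0.018 and -0.001 for I, and 0.011, 0.019, 0.047, 0.019, 0.033 and 0.030 for II. For III they were -0.024, -0.010, 0.011, -0.012, 0.009 and -0.013, for IV -0.021, -0.034, 0.003, -0.012, -0.018 and -0.022, and for V -0.027, -0.015, 0.017, -0.024, 0.010 and -0.017. Summed ratios with length-corrected CPM were 0.994 for all members and 1.006, 1.004, 0.988, 0.993 and 0.985 for I to V, and that of complex II was 0.944 in FPKM. The cause of these moves beyond the construction of each setting was not tested.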
